A study of Mus musculus with 2 samples.

Results

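The miR-181 family of the mouse comprises 6 microRNA genes in 3 genomic pairs, Mir181a-1 with Mir181b-1, Mir181a-2 with Mir181b-2, and Mir181c with Mir181d. The members are the genes with miR-181 names, a rule that uses no measured level, and all 6 were found among the 1973 microRNA genes counted. They were counted by microRNA sequencing in 2 libraries from newborn B6NCrl mice (postnatal, age 0 days), each made from both kidneys of 1 pup, and both pups came from the same pregnancy. The RNA was limited in size to below 30, a value given without a unit. No genetic change or treatment is given for either pup, and sex was not collected. The pups form 1 group of 2 biological replicates, so no comparison between conditions exists. The data allow a comparison of the 6 genes with each other and of pup 1 with pup 2.

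A microRNA gene is transcribed into a precursor that folds into a hairpin, and cutting of the hairpin releases a short RNA from its 5′ side (the 5p arm) and another from its 3′ side (the 3p arm). One arm is loaded into an Argonaute protein and guides it to messenger RNAs, mainly through the seed, which is bases 2 to 8 of the arm. The miR-181 genes are known from lymphocytes, where they tune the response of developing T cells to antigen, from endothelium, where they dampen inflammatory signalling, and from the nervous system. In this family the 5p arms are known as the main products.

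The mature arms are shown first, because they decide which reads can be counted for which gene. Capitals mark the seed. All sequences and arm positions are from RefSeq on GRCm38.p6, the assembly also called mm10. The 5p arms are 4 sequences from 6 genes.
miR-181a-5p: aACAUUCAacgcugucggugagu
miR-181b-5p: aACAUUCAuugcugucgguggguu
miR-181c-5p: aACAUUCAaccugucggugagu
miR-181d-5p: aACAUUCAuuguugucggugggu
The 3p arms are 6 different sequences.
miR-181a-1-3p: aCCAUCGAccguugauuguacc
miR-181a-2-3p: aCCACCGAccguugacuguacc
miR-181b-1-3p: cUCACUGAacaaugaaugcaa
miR-181b-2-3p: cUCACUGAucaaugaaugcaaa
miR-181c-3p: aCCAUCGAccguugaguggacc
miR-181d-3p: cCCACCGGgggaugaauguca

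All 4 of the 5p arms had the seed ACAUUCA, and no other mature sequence in the RefSeq table had it. The 3p arms fell into 4 seeds. The arms miR-181a-1-3p and miR-181c-3p shared CCAUCGA although their genes lie on different chromosomes, both miR-181b 3p arms shared UCACUGA, and miR-181a-2-3p and miR-181d-3p each had a seed of their own. With positions counted from 1 at the 5′ end, miR-181b-5p and miR-181d-5p differed by 1 substitution over their common length, C12U, the first base being that of miR-181b-5p, which is also longer at its 3′ end. The arm miR-181c-5p was 1 edit away from miR-181a-5p, being 22 bases long against 23. From miR-181a-1-3p, miR-181a-2-3p differed by U5C and U16C and miR-181c-3p by U16G and U19G. The arms miR-181b-1-3p and miR-181b-2-3p differed by A9U and by their last base.

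The genes of the a and b pairs share their whole 5p arm with a copy on another chromosome. The 4 hairpins are shown with capitals for every base that lies in a stretch of 18 bases also found in another microRNA hairpin of the GENCODE annotation, release M21.
Mir181a-1: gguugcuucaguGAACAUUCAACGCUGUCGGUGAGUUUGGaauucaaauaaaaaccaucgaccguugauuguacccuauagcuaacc
Mir181a-2: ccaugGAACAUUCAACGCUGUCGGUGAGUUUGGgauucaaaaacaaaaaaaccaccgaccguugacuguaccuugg
Mir181b-1: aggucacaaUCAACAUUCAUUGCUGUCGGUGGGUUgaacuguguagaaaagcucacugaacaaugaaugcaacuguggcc
Mir181b-2: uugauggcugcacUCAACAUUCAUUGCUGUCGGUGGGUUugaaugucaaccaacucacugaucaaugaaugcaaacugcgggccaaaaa
Mir181a-1 and Mir181a-2 had 28 such bases in common, and Mir181b-1 and Mir181b-2 had 26, in each case the 5p arm with a few bases around it. No stretch of 18 bases of any 3p arm, and none of the whole hairpins of Mir181c and Mir181d, was found in another of the 2202 hairpins searched. The longest stretch that Mir181c shared with another member was 17 bases, with Mir181a-1 and with Mir181a-2, and that of Mir181d was 13 bases, with Mir181b-1. A whole mature arm present in another hairpin was found for 4 of the 6 members, and for 52 of the 297 tested genes with a mature sequence in the RefSeq table, or 17.5%. This count also takes in arms whose reverse complement lies in another hairpin, whereas the 4 members match in the same sense, as printed above.

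**Figure D1:**
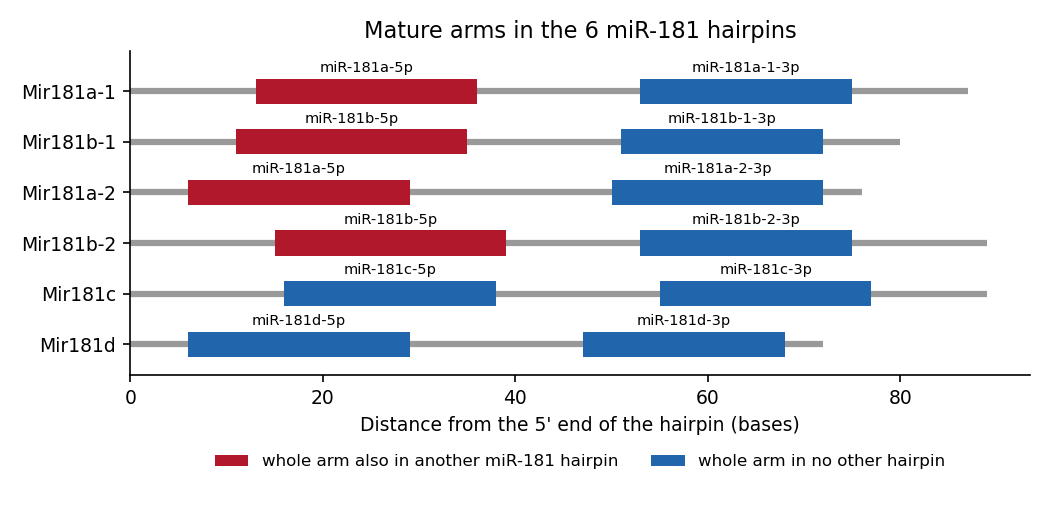
Position of the mature arms (boxes) along each of the 6 hairpins (grey lines), in bases from the 5′ end of the hairpin. Red boxes are arms whose whole sequence is also in another hairpin, which are the 5p arms of the 4 a and b genes, and the other 8 boxes are blue.

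A read from miR-181a-5p or miR-181b-5p matches 2 places equally well. Reads with more than 1 place are listed in the deposited tables apart from the genes, as 3038663 multimapping reads in pup 1 (30.3% of reads) and 2075718 in pup 2 (31.0%), and how many of them belong to miR-181 was not measured. The counts of Mir181a-1, Mir181a-2, Mir181b-1 and Mir181b-2 below therefore leave out any such reads, whereas the arms of Mir181c and Mir181d lie whole in no other hairpin searched. Whether reads of miR-181b-5p and miR-181d-5p, which differ by C12U and their length, were always counted apart depends on the mismatches the alignment allowed. The same holds for miR-181a-5p and miR-181c-5p, which are 1 edit apart, and for the gaps allowed. The sources used here give neither setting, so the counts of Mir181c and Mir181d carry that limit. Levels are those of reads assigned to 1 place, and they do not order the total output of the genes. The tables count a hairpin as a whole, so neither arm has a value of its own.

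On mm10, the plus strand of chromosome 1 holds Mir181a-1 (ENSMUSG00000065565.1) at bases 137966455 to 137966541, and Mir181b-1 (ENSMUSG00000065458.1) follows 97 bases downstream, from 137966639 to 137966718. Both lie in intronic sequence of the noncoding gene Gm4258 on the same strand, and the exon of the noncoding gene A430106G13Rik holds all of the Mir181b-1 hairpin and the last 11 bases of that of Mir181a-1. Chromosome 2 holds Mir181a-2 (ENSMUSG00000065423.1), also on its plus strand, at bases 38852735 to 38852810, and Mir181b-2 (ENSMUSG00000065578.1) lies 1019 bases downstream, from 38853830 to 38853918. Both are opposite to intronic sequence of Nr6a1, a nuclear receptor gene, Mir181b-2 is also opposite to an exon of the gene model Gm44144, and the noncoding gene Nr6a1os on their own strand ends 364 bases before Mir181a-2. Chromosome 8 holds Mir181c (ENSMUSG00000065483.1) on its minus strand at bases 84178873 to 84178961, with Mir181d (ENSMUSG00000076338.1) 85 bases downstream, from 84178716 to 84178787. This pair lies in intronic sequence of Nanos3, a germ cell gene, on the same strand. No read was counted on the strand opposite to any of the 6 genes in either pup, the strand of Nr6a1 included.

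The depth behind the values was 5832192 counts on genes in pup 1 and 3846704 in pup 2, and levels are given as CPM, the count scaled to a total of 1e+06 for all genes. A gene at 0 counts could stand at up to 0.514 CPM in pup 1 and 0.780 in pup 2, the limit of 3 counts, and all 6 members lay above it. This limit and the 95% intervals below cover the counting error of reads only. No molecular identifiers tell repeated copies of a molecule apart, so the counting error of molecules may be wider. Kidney epithelium and Hox-positive kidney markers were abundant, with summed levels of 55154 and 52706 CPM over 10 epithelial marker genes, Mir30a among them, and 250924 and 240640 CPM over Mir10a, Mir10b and Mir196b in pups 1 and 2. Of the muscle markers, Mir206 stood at 5.14 and 4.42 CPM and Mir1a-1 and Mir133a-1 had 0 counts in both pups. The pancreas marker Mir375, at 118 and 141 CPM, was higher in pup 2, Mir217 had 5 and 3 counts and Mir216a had 0. No counts fell on the 3 Mir124a genes, markers of brain, in either pup. The genes of miR-124, miR-1 and miR-133a are present in several copies, and reads that match more than 1 copy would be left out. The only arm listed for Mir1a-1 lay whole in no other hairpin, and the arms of Mir133a-1 and the Mir124a genes were not searched. These zeros do not measure the content of brain or muscle RNA.

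Mir181c and Mir181d, the pair with no shared arm, had the highest levels of the family. Mir181c had 22781 counts in pup 1 and 14575 in pup 2, or 3906 and 3789 CPM, for a mean of 3848 ± 82.8 (SD, n = 2). It ranked 37th of the microRNA genes in pup 1 and 38th in pup 2. Mir181d had 14002 and 7613 counts, or 2401 and 1979 CPM, with a mean of 2190 ± 298 (SD, n = 2) and ranks 48 and 53. Pup 1 was the higher pup for both genes, and the levels of the 2 genes did not overlap.

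Next came Mir181a-1, known from developing lymphocytes. Its counts of 8313 (pup 1) and 6004 (pup 2) correspond to 1425 and 1561 CPM, with a mean of 1493 ± 95.8 (SD, n = 2), and pup 2 was higher. Mir181b-2 had 3967 and 1778 counts, or 680 and 462 CPM, with a mean of 571 ± 154 (SD, n = 2), the widest spread between the pups in the family relative to its mean, at 27.0%. These were the higher genes of the a and b copies, and they belong to different pairs.

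The other gene of each of these pairs was low. Mir181a-2 had 237 counts in pup 1 and 210 in pup 2, or 40.6 CPM (95% Wilson interval 35.8 to 46.2) and 54.6 CPM (47.7 to 62.5), with a mean of 47.6 ± 9.87 (SD, n = 2). Mir181b-1 had 71 and 36 counts, or 12.2 CPM (9.65 to 15.4) and 9.36 CPM (6.76 to 13.0), with a mean of 10.8 ± 1.99 (SD, n = 2). The intervals of Mir181a-2 did not overlap between the pups and those of Mir181b-1 did.

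The order of the 6 levels was the same in both pups, and each of the 5 gaps between neighbours exceeded the larger SD of the 2 genes. The narrowest gap on that scale was the one between Mir181d and Mir181a-1, 697 CPM or 2.34 times the larger SD, with 975 CPM in pup 1 and 418 in pup 2. The widest fold was that from Mir181b-2 to Mir181a-2, 12.0-fold between the means. The order was not tested, and the error given for it is the spread of 2 values. At 1000 CPM or more in both pups stood 3 of the 6 members and 73 of all 1973 genes. Among the 324 genes that averaged 10 counts or more over the pups, a filter that all 6 members passed, the median level was 114 CPM, and 4 members lay above it.

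**Figure D2:**
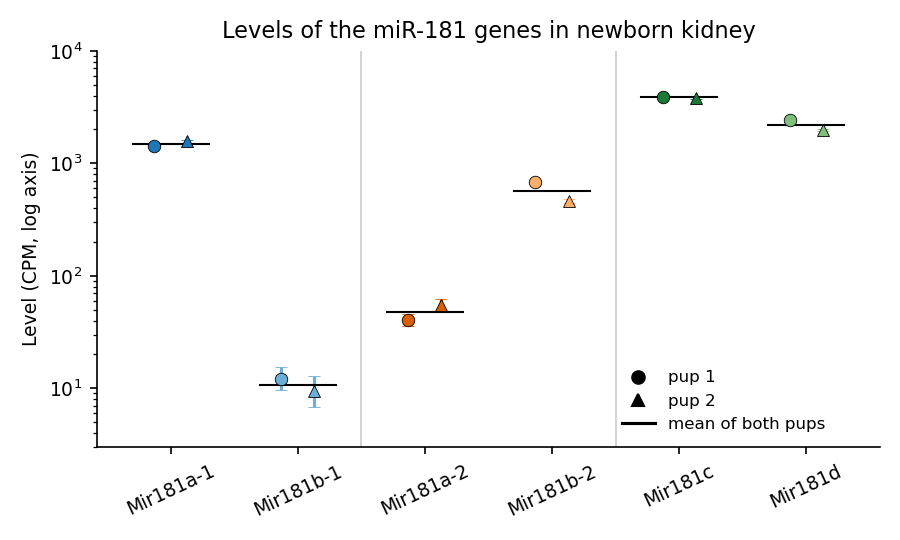
Level of each miR-181 gene in CPM on a log axis, with pup 1 as circles, pup 2 as triangles, 95% Wilson counting intervals as bars and the mean of both pups as a line; grey lines part the genomic pairs. Mir181c and Mir181d lie highest, and within the a and b pairs the higher gene is Mir181a-1 in one and Mir181b-2 in the other.

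Together the family held 49371 counts in pup 1 and 30216 in pup 2, which is 0.846% (95% Wilson interval 0.839 to 0.854) and 0.786% (0.777 to 0.794) of counts. Mir181c and Mir181d supplied 74.5% of the family's counts in pup 1 and 73.4% in pup 2. Mir181a-1 and Mir181b-1 supplied 17.0% and 20.0%, and Mir181a-2 and Mir181b-2 supplied 8.52% and 6.58%. The pair on chromosome 8 was thus first in both pups and the pair on chromosome 2 last, among reads assigned to 1 place.

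**Figure D3:**
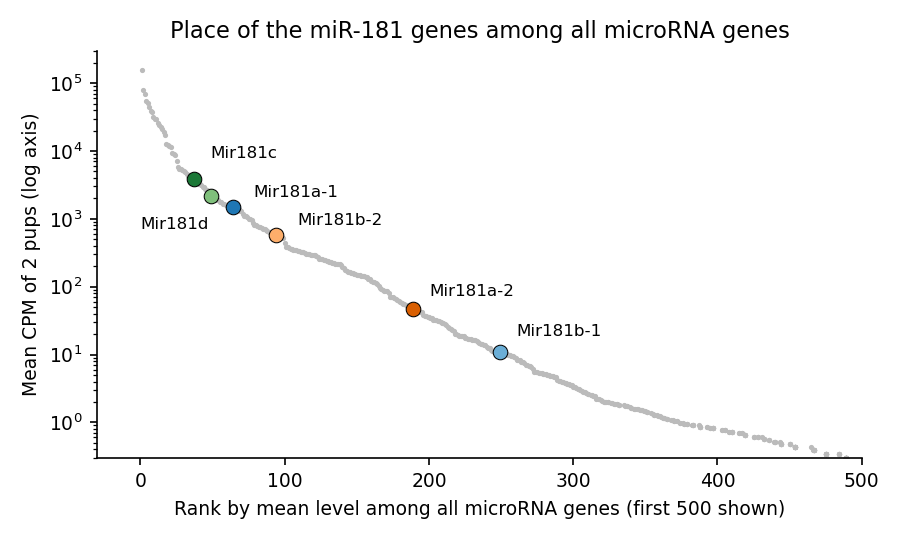
Mean level over both pups (CPM, log axis) of microRNA genes against their rank, with the 6 miR-181 genes marked. They spread from rank 37 (Mir181c) to rank 249 (Mir181b-1).

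The genes nearest in level to each member, by Euclidean distance of log2(CPM + 1) over the 2 pups, were of varied families. Nearest to Mir181c were Mir652 (3908 and 4005 CPM in pups 1 and 2) and the epithelial Mir200c (3762 and 3581), at distances of 0.08 and 0.10. Nearest to Mir181d were Mir182 (2220 and 1933 CPM) and Mir296 (2614 and 2244), at 0.12 and 0.22. Mir181a-1 lay beside Mir196a-2 (1452 and 1515 CPM) and Mir101b (1475 and 1580), both at 0.05. Mir181b-2 lay farther from its nearest genes, Mir34c (582 and 496 CPM) and Mir188 (631 and 553), at 0.25 and 0.28. Both of those were also lower in pup 2, which the distance over both pups already takes in. Mir181a-2 lay beside Mir494 and Mir496a at a distance of 0.23 each, and Mir181b-1 beside Mir8112 and Mir215 at 0.09 and 0.12. A likeness over 2 pups describes levels only.

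Within the pairs, the a and the b gene stood in opposite order on the 2 chromosomes. On chromosome 1 Mir181a-1 exceeded Mir181b-1 117-fold in pup 1 (95% Wilson interval 92.7 to 148) and 167-fold in pup 2 (120 to 231). On chromosome 2 it was the b gene that was higher, Mir181b-2 exceeding Mir181a-2 16.7-fold in pup 1 (14.7 to 19.1) and 8.47-fold in pup 2 (7.34 to 9.77). On chromosome 8 Mir181c exceeded Mir181d 1.63-fold in pup 1 (1.59 to 1.66) and 1.91-fold in pup 2 (1.86 to 1.97). The mean log2 ratio was 7.13 ± 0.36 for Mir181a-1 over Mir181b-1, -3.57 ± 0.70 for Mir181a-2 over Mir181b-2 and 0.82 ± 0.17 for Mir181c over Mir181d (SD, n = 2). Each of the 3 ratios kept its direction in both pups and lay farther from 0 than its SD. Library scaling cancels in these ratios. For the a and b genes, any reads of the arm shared with a copy that match both places are left out. Their ratios are therefore those of the remaining reads and do not order the total output of the genes.

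Copies with the same 5p arm also differed in level. Mir181a-1 exceeded Mir181a-2 35.1-fold in pup 1 (95% Wilson interval 30.8 to 39.9) and 28.6-fold in pup 2 (24.9 to 32.8). Mir181b-2 exceeded Mir181b-1 55.9-fold (44.2 to 70.6) and 49.4-fold (35.6 to 68.6). Since any reads of the common 5p arm that match both places are left out on both sides, these ratios are those of the remaining reads.

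All 3 miR-181 pairs were then set beside the 102 pairs of neighbouring tested microRNA genes on the same strand no more than 10 kb apart, of which they are part. By the size of the mean log2 ratio of levels, Mir181a-1 and Mir181b-1 ranked 5th, Mir181a-2 and Mir181b-2 39th and Mir181c and Mir181d 86th, around a median of 2.60. Reads matching more than 1 place are left out here too, so these ranks do not order the pairs by their total output. The ratio of Mir181a-2 to Mir181b-2 shifted by 0.98 on the log2 scale from pup 1 to pup 2, or 1.98-fold. That shift ranked 2nd of the 102 pairs, after Mir144 and Mir451a, microRNAs of red blood cells, which shifted by 2.37. The shift was 0.50 for Mir181a-1 and Mir181b-1, ranked 13th, and 0.23 for Mir181c and Mir181d, ranked 39th, beside a median of 0.17 and a 90th percentile of 0.50 over all pairs. Low counts widen such shifts, and the pair on chromosome 1 rests on 71 and 36 counts of Mir181b-1. Intervals of the ratio within the pair did not overlap between the pups for the pairs on chromosomes 2 and 8 and did overlap for the pair on chromosome 1.

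**Figure D4:**
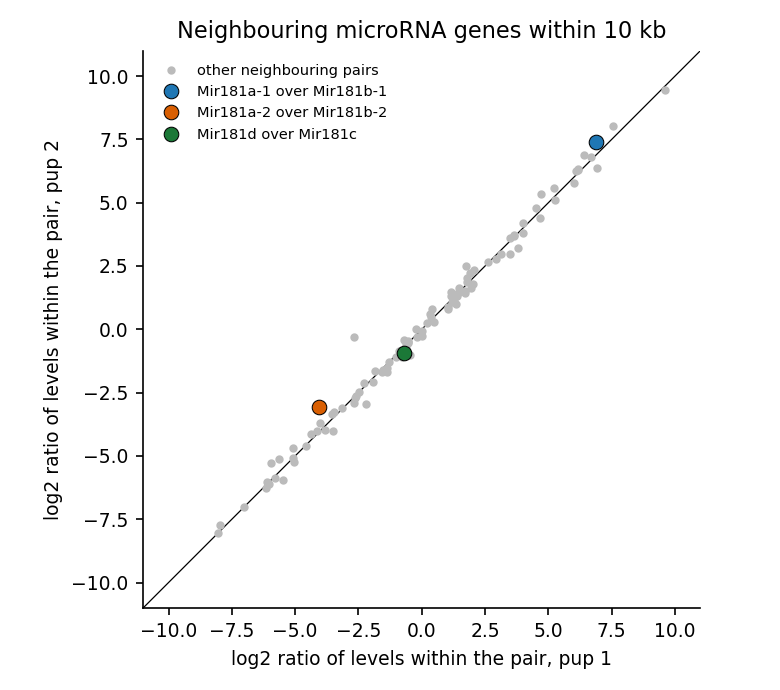
Log2 ratio of levels within each of the 102 neighbouring pairs of microRNA genes, in pup 1 (x axis) and pup 2 (y axis), with the line of equality. Mir181a-2 over Mir181b-2 lies above the line, at -4.06 in pup 1 and -3.08 in pup 2, and the other 2 miR-181 pairs lie nearer to it; Mir181d over Mir181c is drawn in order of position.

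Between the pups, Mir181b-2 and Mir181d were lower in pup 2 by their counts, Mir181a-2 was higher, and Mir181c and Mir181a-1 passed the test with small ratios. Given the library sizes, the 2 counts of each of the 324 genes were put to a binomial test, exact and two-sided, with Benjamini-Hochberg adjustment over all 324 and a threshold of 0.05. This test compares the reads of 2 libraries and knows counting error alone, and across all genes it called 109, or 33.6%. Of the members 5 of 6 passed, 2 of them higher in pup 2 and 3 lower, where 12.7% and 21.0% of all tested genes were. The split over all genes, 41 higher and 68 lower, was 52 and 40 with the size factors of DESeq2 and 48 and 50 with TMM factors from the tested genes only, and that over the members was 2 and 2 with the former. Deeply counted genes pass more often. Among the 139 genes averaging 1000 counts or more, a limit chosen after the values were seen, 66.9% passed, and so did all 4 members of that depth.

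Mir181b-2 had a log2 ratio of pup 2 over pup 1 of -0.58 (exact binomial test, adjusted p = 1.32e-45). Its 95% interval from counting error was -0.66 to -0.50. The change was the 24th largest in size among the 324 genes. Every gene with a larger change averaged fewer than 1000 counts, the limit used above. The deepest of these was Mir451a, with 1213 counts in pup 1 and 206 in pup 2. For Mir181d the ratio was -0.30 (-0.34 to -0.26, adjusted p = 7.33e-48), and for Mir181c it was -0.06 (-0.10 to -0.03, adjusted p = 0.000116). Under the size factors of DESeq2 Mir181c did not pass, at -0.02 (adjusted p = 0.307). Mir181a-2 had 0.41 (0.13 to 0.68, adjusted p = 0.0123) and Mir181a-1 0.11 (0.06 to 0.16, adjusted p = 4.37e-05). Mir181b-1, the least counted member, did not pass at -0.39 (-1.02 to 0.20, adjusted p = 0.385). On chromosome 2 the members of the pair thus passed in opposite directions, and on chromosome 8 both passed as lower. For the a and b genes these ratios rest on reads assigned to 1 place, which leave out any that match both copies.

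The median size of the log2 ratio was 0.35 over the 6 members and 0.15 over the 324 genes. Over the 4 members and the 139 genes averaging 1000 counts or more these were 0.20 and 0.10. An edgeR exact test that takes in the spread between the pups, a biological coefficient of variation of 9.29%, called 0 members and 1 of the 324 genes (0.309%), with 1 member, Mir181b-2, and 14 genes (4.32%) at an unadjusted p under 0.05. That spread was estimated from the same 2 libraries. In bulk tissue, fewer cells of a type and less RNA per cell cannot be told apart.

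**Figure D5:**
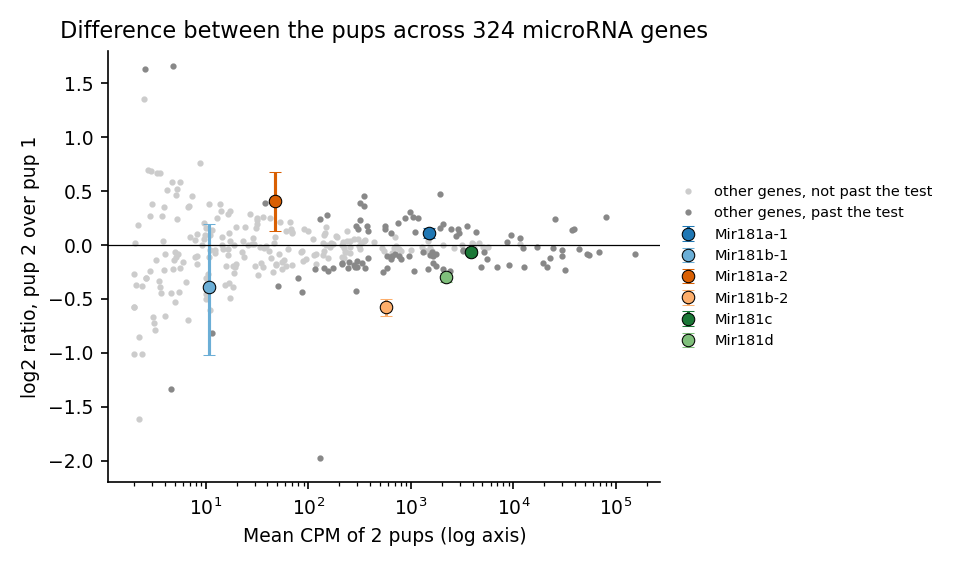
Log2 ratio of pup 2 over pup 1 against mean level (CPM, log axis) for the 324 tested genes, with the 6 miR-181 genes in colour and their 95% counting intervals as bars. Mir181b-2 at -0.58 and Mir181d at -0.30 lie below 0 with intervals that do not reach it, and Mir181a-2 at 0.41 lies above.

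MicroRNAs of cell types in which miR-181 is known were compared in the same test. That test called 33.6% of all tested genes and 66.9% of those averaging 1000 counts or more. Of the lymphoid and myeloid genes, 4 of 5 were counted (Mir142 was not analysed here), at summed levels of 735 CPM in pup 1 and 672 in pup 2. Mir223 of myeloid cells was lower in pup 2 at -0.20 (exact binomial test, adjusted p = 0.00137), and Mir155, Mir146 and Mir150 did not pass. Of 3 endothelial genes, summing to 72891 and 88098 CPM, Mir126a was higher in pup 2 (0.26), Mir221 lower (-0.10), and Mir222 did not pass. Mir137 was the only neural gene deep enough to test and did not pass. The list summed to 17.7 and 19.8 CPM over 6 of its 7 genes (Mir9-1 was not analysed here), of which the 3 Mir124a genes had 0 counts. Both arms of Mir9-2 and of Mir9-3 also lie whole in other hairpins. Of 10 genes of nephron epithelium, a list that holds Mir194-1 where the marker list above holds the abundant Mir30a, at 32757 and 32955 CPM, 3 were higher (Mir192, Mir204 and Mir200b) and 3 lower (Mir194-2, Mir200c and Mir429). Mir30a, at 22401 and 19754 CPM, was lower as well, at -0.20. In the hairpin of Mir194-1, 1 arm of Mir194-2 also lies whole. Mir429 changed direction with the scaling, at 17154 CPM in pup 1 and 17193 in pup 2 before TMM scaling. The red blood cell markers Mir451a and Mir144 summed to 240 CPM in pup 1 and 96.5 in pup 2, with Mir451a lower and Mir144 higher in pup 2, and the liver marker Mir122 stood at 56.9 and 44.2 CPM. The part of any of these, or of the pancreas and muscle markers above, in the differences of the miR-181 genes was not tested.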

How the data were processed

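MicroRNA sequencing libraries of 2 newborn mouse kidney samples were analysed from tables of whole-number read counts per gene that the authors deposited, without normalisation. The build was mm10 and the annotation M4, per the deposited notes. For the aligner, its version, its settings and its handling of mismatches, the sources used here give nothing. Counts on the strand of the gene were used, a column recognised from its values. Rows that name no gene took 41.8% and 42.6% of reads and stayed out of library sizes and tests.

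Names and coordinates came from GENCODE M21 (1894 of 1973 identifiers matched, all 6 members among them) and sequences from RefSeq, which lists both arms of all 6 members. Its table held no hairpin for Mir181c, and the hairpin of GENCODE was used for comparison. CPM used the total over all genes, and the test between pups used TMM effective library sizes over all genes (edgeR 4.0.16). A quasi-likelihood test could not be fitted with 2 libraries. Log2 ratios between pups have a prior count of 0.5. The binomial test between pups was run on counts simulated with counting error alone, where it called 1.72% of 233 unchanged genes. That simulation held no spread between pups, so it does not show how often the test errs between these pups.

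Alternatives were other scalings, filters, strands and tests, and each pup left out. All members are named. For each, the 2 genes nearest in level were named by a fixed rule, and the lists are those of the report. The members follow from their gene names, but they, the lists and the tests were chosen for description with earlier results of these data known. The labels name separate pups, and p-values here compare their libraries only.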

Additional observations from a re-analysis of the deposited data

How the results depend on the processing

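The 3 ratios within pairs cannot move with counts on either strand, since no member had a read on the opposite strand. With 1 pup left out they are the value of the other pup, with the same direction in both: 6.87 and 7.38 for Mir181a-1 over Mir181b-1, -4.06 and -3.08 for Mir181a-2 over Mir181b-2, and 0.70 and 0.94 for Mir181c over Mir181d, on the log2 scale. The family's share of 0.816% was 0.786% or 0.846% with 1 pup left out, 0.472% of all reads, 0.965% without Mir10a in the total and 0.604% for Mir181c and Mir181d alone, the last chosen after seeing the data. These follow from the totals and genes used. The levels of the 6 genes moved by more than their SD in 9 of 30 alternatives, 6 with all reads as the total and 3 without Mir10a. The 30 include each pup left out. That could not move a level past its SD, since the value of each pup lies nearer than that to the mean of both. With other scalings, no filter on low counts and counts on either strand, 92 to 110 genes passed between the pups. The number tested differed: 95 of 696 passed without the filter and 110 of 334 on either strand, beside 109 of 324 in the main test. The share of passing genes that was higher in pup 2 went from 37.6% to 56.5% with DESeq2 size factors. The edgeR exact test with the pups' dispersion left 1 gene and 0 members. Apart from that test, Mir181c under DESeq2 size factors was the only member call lost. TMM factors from the tested genes only, chosen after seeing the data, gave 98 genes and 5 members. No paired analysis was possible because both pups belong to 1 group. Depth limits Mir181b-1 most, with 71 and 36 counts.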
